A study of Mus musculus with 12 samples.

Results

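The 10 genes described here make, break down or handle heme and iron in the liver. They were taken by symbol from the deposited count table, where all 10 were found among 17432 genes. Alas1, Urod, Cpox and Fech encode enzymes of heme synthesis. Hmox1 and Blvrb encode enzymes of heme breakdown. Tfrc and Tfr2 encode the transferrin receptors, Slc40a1 the iron exporter ferroportin, and Hamp the iron hormone hepcidin. RNA was sequenced from the livers of 12 male wild-type C57BL/6J mice, a common inbred laboratory strain, aged 8 to 10 weeks. All mice had been fed in the day and fasted at night for 3 days, and were then refed for 3 hours. The Exercise group (n = 6) next ran on a treadmill at 14 m/min for 3 hours, and the Sedentary group (n = 6) did not run. Livers of both groups were collected at the end of the run, and no mouse had food after the refeeding.

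Heme is assembled from glycine and succinyl-CoA in a series of enzymatic steps that begin and end in the mitochondrion. The liver uses most of its heme for cytochromes P450, and ALAS1 sets the pace of the hepatic pathway. Heme oxygenase opens the heme ring and releases iron, carbon monoxide and biliverdin, which biliverdin reductases turn into bilirubin. Hepatocytes take up iron from transferrin, store it in ferritin and export it through ferroportin. They also secrete hepcidin, which binds ferroportin and causes its degradation. Iron regulatory proteins bind hairpins called iron-responsive elements (IREs) in mRNAs of iron genes. BMP-SMAD and IL-6-STAT3 signals act on the Hamp promoter.

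Library totals ran from 18745379 to 19324461 counts. The livers expressed hepatocyte markers at high levels, with Alb between 89862 and 127248 CPM (counts scaled to a common library size, with TMM factors). Of 9 listed red cell genes, Slc4a1, Epb42 and Rhag were at most at 0.220 CPM in any liver. Klf1 was at 1.43 to 2.67 CPM, Alas2 at 24.5 to 53.2 CPM, and the other 4 were hemoglobin genes, whose sums are given beside Alas2. The library labelled Exercise replicate 1 stood apart for Myh6, a heart muscle myosin, with 106 counts, against 0 in the other 5 exercised livers and 85 to 212 in sedentary livers. The results for Tfrc and Cpox are therefore also given without it. Myh6 was named after its values were seen. Every sedentary liver held Myh6 counts, so leaving out this library does not remove that difference between the groups (log2 fold change -2.72, adjusted p = 0.0421, edgeR). Its part in the other results was not tested.

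All 10 genes passed the filter on low counts and were tested with edgeR's quasi-likelihood test. Tfrc and Cpox were lower after exercise at an adjusted p under 0.05, none was higher, and 8 did not pass. The count of higher genes was also 0 at an unadjusted p under 0.05 in edgeR, and 0 at an adjusted p under 0.05 in DESeq2 and in limma-voom. Each further count of 0 below held in these 3 ways, except where Hbb-bt is named. For comparison, 42.4% of the 12344 genes tested passed, 21.1% of them higher and 21.3% lower, so 2 of 10 was not an unusual share. The same shares are the comparison for each list of heme and iron genes below. Between 30% and 70% of the tested genes of these 14 lists passed, list by list. Tfrc was the only gene of the 10 whose groups did not overlap, which held for 22.3% of all genes tested. The median log2 fold change of the 10 genes was -0.088, against -0.0028 over all genes tested. In the RNA of a whole liver, fewer cells of a type and less RNA per cell cannot be told apart.

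**Figure D1:**
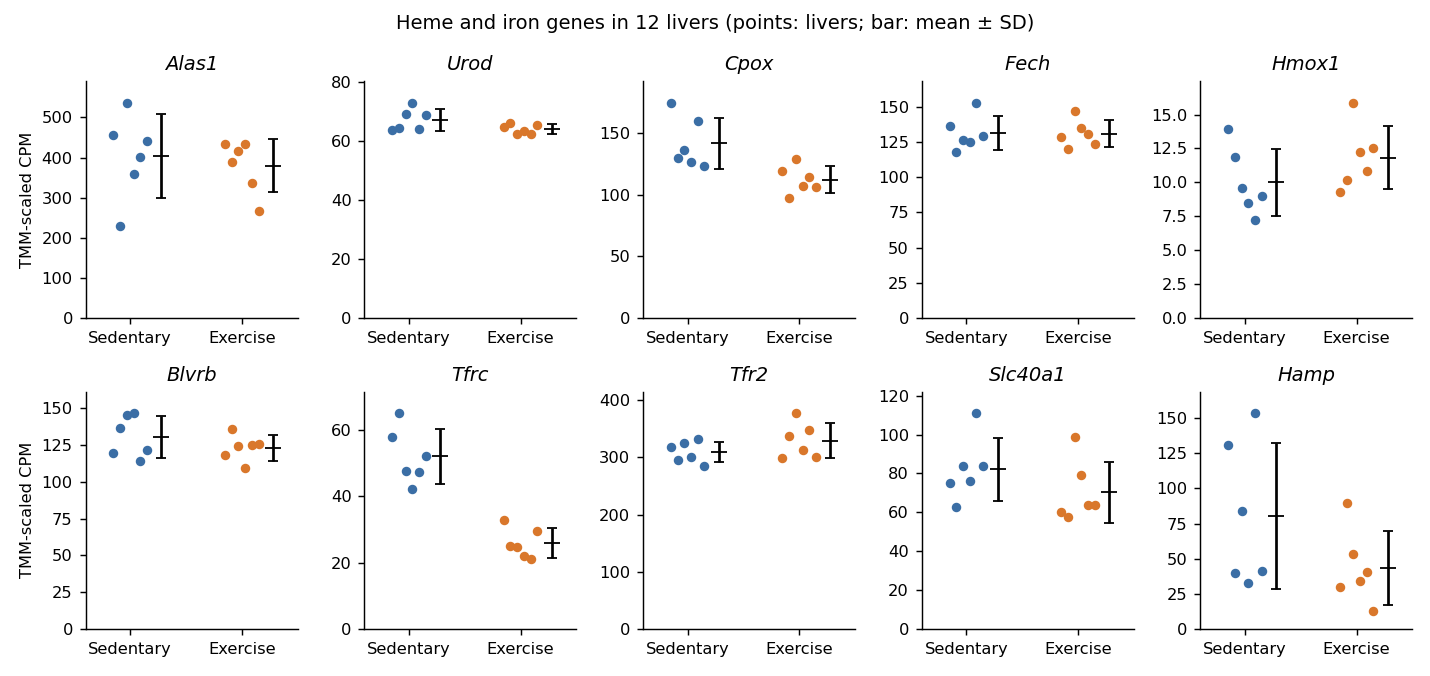
TMM-scaled CPM of the 10 genes in each liver, with Sedentary in blue and Exercise in orange (n = 6 each). Points are livers and the black bar is the mean ± SD. For Tfrc all 6 exercised livers lie below all 6 sedentary livers, and for the other 9 genes the groups overlap.

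Of the heme synthesis enzymes, the first, Alas1, was spread widely within both groups. It lies on chromosome 9 of GRCm38 from 106233455 to 106248654. Sedentary livers ranged from 230 to 537 CPM with a median of 421, and exercised livers from 268 to 434 with a median of 403. The exercised range lay inside the sedentary range. The means were 404 ± 104 and 380 ± 65.8 CPM (SD, n = 6 each). Its log2 fold change was -0.090 (SE 0.19, 95% interval -0.50 to 0.32, adjusted p = 0.737 from edgeR). Without Sedentary replicate 3 the value was 0.0082, and without Exercise replicate 6 it was 0.0012.

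Alad, which joins 2 molecules of aminolevulinate in the next step, is no member of the 10 but lies between them in the pathway. It fell from 164 ± 13.96 to 119 ± 9.31 CPM (SD, n = 6 each), with each exercised liver below each sedentary liver (exact permutation test, 2-sided, p = 0.00216). Its log2 fold change was -0.46 (SE 0.067, adjusted p = 3.03e-05, edgeR). Further along, Uros, which closes the ring, had a log2 fold change of -0.093 (adjusted p = 0.351, edgeR).

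Urod, which decarboxylates uroporphyrinogen (chromosome 4, 116989965 to 116994413), varied least. Its CV was 5.56% in sedentary and 2.44% in exercised livers. Sedentary livers ranged from 63.9 to 73.2 CPM with a median of 66.6, and exercised livers from 62.5 to 66.1 with a median of 64.2. All 6 exercised livers were below the sedentary median and 3 were below the lowest sedentary liver. This gave a log2 fold change of -0.069 (SE 0.050, 95% interval -0.17 to 0.037, adjusted p = 0.294, edgeR). Its call depended on the scaling, since it was lower when counts were divided by library size alone (-0.16, adjusted p = 0.0280, edgeR) and on the FPKM scale (-0.18 in limma).

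Cpox, which converts coproporphyrinogen in the mitochondrial intermembrane space, fell by 20.7% in mean CPM. It lies on chromosome 16 from 58670292 to 58717636. Sedentary livers ranged from 123 to 174 CPM with a median of 133, and exercised livers from 97.4 to 129 with a median of 111. Sedentary replicates 1 and 5 were the highest, and 5 of 6 exercised livers were below every sedentary liver. Only Exercise replicate 3 reached into the sedentary range. The means were 141 ± 20.7 and 112 ± 11.1 CPM (SD, n = 6 each), with a log2 fold change of -0.33 (SE 0.088, 95% interval -0.52 to -0.15, adjusted p = 0.00553, edgeR; exact permutation test, 2-sided, p = 0.00649). Without Exercise replicate 1 the log2 fold change was -0.35 (adjusted p = 0.00779, edgeR). Gpr15 overlaps Cpox in the annotation and had 17 counts over all libraries.

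Ppox, the next enzyme, was also lower, with a log2 fold change of -0.35 (SE 0.099, adjusted p = 0.00833, edgeR). It was counted thinly, at 15.4 ± 1.77 CPM in sedentary and 12.1 ± 1.76 CPM in exercised livers (SD, n = 6 each). Fech, which inserts iron into protoporphyrin and ends the pathway, had the smallest difference of the 10 genes. Sedentary livers ranged from 118 to 153 CPM with a median of 128, and exercised livers from 120 to 147 with a median of 130. The ranges nearly coincided. Fech had a log2 fold change of -0.0058 (SE 0.066, 95% interval -0.15 to 0.13, adjusted p = 0.954, edgeR).

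Of the enzymes reported here, in pathway order, Alad, Cpox and Ppox passed the test and all were lower, while Alas1, Uros, Urod and Fech did not pass. These 3 calls stood under every alternative tried and without each liver in turn. Alas2, the form of the first enzyme used by red cell precursors, was counted at 45.3 ± 6.90 CPM in sedentary and 37.1 ± 7.09 CPM in exercised livers (SD, n = 6 each), and did not pass (log2 fold change -0.29, adjusted p = 0.109, edgeR). With it, 3 of the 8 enzymes reported were lower and 0 higher, with a median log2 fold change of -0.19. That is 37.5% passing, against 42.4% of all genes tested. Hemoglobin transcripts of blood cells summed to 368 to 649 CPM in sedentary and 369 to 487 CPM in exercised livers, and 0 of 4 hemoglobin genes passed. Of these, 1 (Hbb-bt) was lower at an unadjusted p under 0.05 in edgeR (log2 fold change -0.21), and 0 passed in DESeq2 or limma-voom. The log2 fold change was -0.23 for Hba-a1, -0.32 for Hba-a2 and -0.18 for Hbb-bs. The median of the 6 tested red cell genes, Alas2 included, was -0.24. Whether blood content had a part in the differences of the enzymes was not tested.

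Per transcript length, in the deposited FPKM, Alas1 was the most abundant of these enzymes in the sedentary mean (157 ± 39.0, SD, n = 6) and Alad the next (117 ± 11.7). Their sedentary livers overlapped. Urod followed at 56.2 ± 4.51, then Fech at 46.9 ± 2.94 and Cpox at 46.6 ± 6.57, which did not differ beyond their spread. After exercise Cpox was at 34.5 ± 2.51 and Fech at 43.7 ± 1.90 FPKM (SD, n = 6 each). The lowest were Uros at 10.3 ± 1.29 and Ppox at 9.14 ± 1.28 FPKM in sedentary livers, which lay within their spread.

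**Figure D2:**
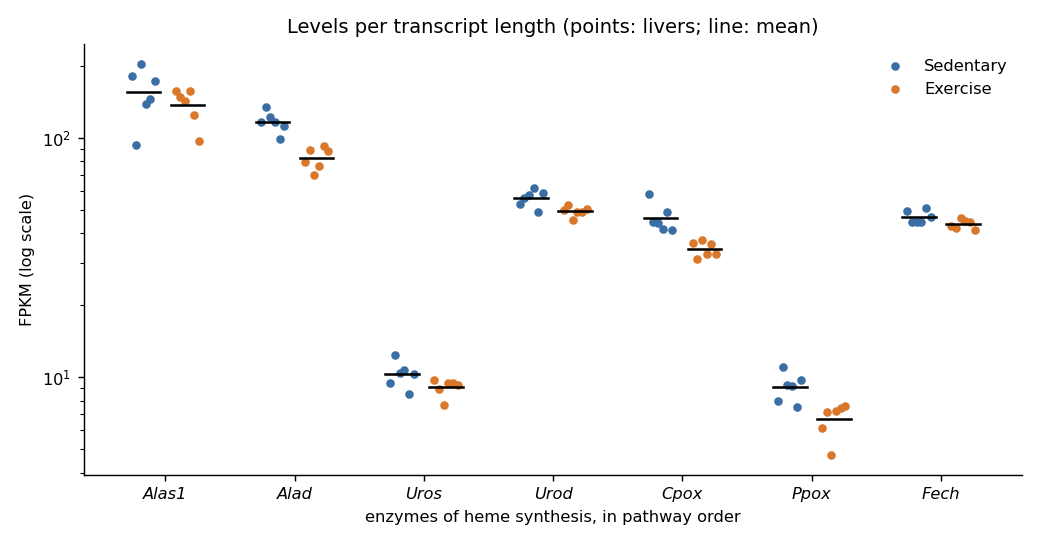
Deposited FPKM on a log scale for enzymes of heme synthesis, ordered by their step in the pathway. Points are livers (Sedentary blue, Exercise orange, n = 6 each) and lines are means. Alas1 and Alad are the highest and Uros and Ppox the lowest, and Alad shows a clear step down after exercise.

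Of 16 mitochondrial carriers and helpers of heme synthesis, 2 were higher and 4 lower. Slc25a37, which brings iron into mitochondria, fell by 0.59 on the log2 scale (adjusted p = 6.42e-06, edgeR). Abcb10, a mitochondrial transporter known to stabilise that iron carrier, fell by 0.38 (adjusted p = 0.000554, edgeR). Pgrmc2, a heme chaperone, fell by 0.28 (adjusted p = 0.00165, edgeR). Slc25a38, the mitochondrial glycine carrier, rose by 0.31 (adjusted p = 0.000216, edgeR). For these 4 genes, named for their small adjusted p, the groups did not overlap, as in 22.3% of all genes tested.

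Alas1 is also known for its transcriptional control by nutrition. Of 10 listed regulators of Alas1, 4 were higher and 3 lower, while Alas1 itself had the wide interval given above. Ppargc1a, a coactivator induced by fasting, rose from 8.89 ± 2.68 to 32.6 ± 5.01 CPM (SD, n = 6 each; log2 fold change 1.88, adjusted p = 5.09e-06, edgeR). Foxo1, a factor that insulin holds out of the nucleus, rose by 1.05 on the log2 scale (adjusted p = 1.40e-05, edgeR). Hnf4a rose by 0.59 (adjusted p = 4.97e-06, edgeR), and Nr1h4, the bile acid receptor, fell by 0.73 (adjusted p = 1.03e-07, edgeR).

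Heme breakdown gave no call among the 10 genes. Hmox1, the inducible heme oxygenase (chromosome 8, 75093621 to 75100589), was the least counted of them, with 133 to 279 counts per library. Sedentary livers ranged from 7.23 to 13.9 CPM with a median of 9.29, and exercised livers from 9.30 to 15.9 with a median of 11.5. All 6 exercised livers were above the sedentary median, but only Exercise replicate 3 was above the highest sedentary liver. This came to a log2 fold change of 0.23 (SE 0.16, 95% interval -0.11 to 0.57, adjusted p = 0.258, edgeR).

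Blvrb, a biliverdin and flavin reductase (chromosome 7, 27447978 to 27466144), ranged from 114 to 147 CPM in sedentary livers with a median of 129, and from 109 to 136 in exercised livers with a median of 125. The groups overlapped over most of their range. Its log2 fold change was -0.086 (SE 0.072, 95% interval -0.24 to 0.064, adjusted p = 0.359, edgeR).

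The other heme oxygenase and the other biliverdin reductase, which are no members of the 10, both passed, in opposite directions. Hmox2, the constitutive heme oxygenase, was at 46.4 ± 2.54 CPM in sedentary and 54.8 ± 4.68 CPM in exercised livers (SD, n = 6 each; log2 fold change 0.24, adjusted p = 0.00464, edgeR), a call that was lost with library size alone and on the FPKM scale (0.15 in each). Blvra, the main biliverdin reductase of adults, had 8.10 ± 0.852 CPM in sedentary and 6.80 ± 0.834 CPM in exercised livers. It was lower by a narrow margin (log2 fold change -0.25, adjusted p = 0.0457, edgeR) and lost its call under DESeq2, with no filter beyond 1 count, and when any of 7 of the 12 livers was left out. Per transcript length, mean Hmox2 FPKM was 39.8 in sedentary and 44.4 in exercised livers, above Hmox1 at 6.82 and 7.46. Por, the reductase that passes electrons to heme oxygenases and cytochromes P450, rose from 330 ± 87.2 to 784 ± 88.1 CPM (SD, n = 6 each; log2 fold change 1.25, adjusted p = 3.34e-05, edgeR). Over the list of heme breakdown and bilirubin disposal, 2 of 9 genes were higher and 1 lower.

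Of 8 listed regulators of Hmox1, 4 were higher and 1 lower. Bach1, the heme-binding repressor of Hmox1, rose from 18.4 ± 1.87 to 31.3 ± 2.85 CPM (SD, n = 6 each; log2 fold change 0.76, adjusted p = 5.82e-07, edgeR). The genes of the small Maf proteins, which bind DNA as partners of BACH1 or NRF2, were each higher. Maff rose by 2.27, Mafg by 0.52 and Mafk by 0.42 on the log2 scale (adjusted p = 3.38e-06, 2.79e-06 and 0.000214, edgeR). Over the alternatives the values ranged from 1.43 to 2.28 for Maff, 0.25 to 0.53 for Mafg and 0.25 to 0.42 for Mafk. Maff was counted thinly, with 21 to 227 counts per library. For Bach1, Maff, Mafg and Mafk, named for their small adjusted p, each exercised liver was above each sedentary liver. The groups did not overlap in 22.3% of all genes tested.

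Among genes for the scavenging and transport of heme and hemoglobin, 4 of 9 were higher and 1 lower. Hp, haptoglobin, rose from 2203 ± 275 to 3331 ± 396 CPM (SD, n = 6 each; log2 fold change 0.60, adjusted p = 5.33e-05, edgeR). Cd163, the macrophage receptor for haptoglobin-hemoglobin, rose by 0.88 on the log2 scale (adjusted p = 0.000201, edgeR). Of 10 listed Kupffer cell and macrophage genes 0 passed edgeR's test, with a median log2 fold change of 0.13. Their summed level was 118 to 197 CPM in sedentary and 141 to 214 CPM in exercised livers. Their part in the Cd163 difference was not tested. Flvcr1, a heme exporter, rose by 0.55 (adjusted p = 0.00112, edgeR). It was counted thinly, with 35 to 64 counts per library, and its value ranged from 0.17 to 0.55 over the alternatives. Hpx, hemopexin, rose by 0.23 (adjusted p = 0.0133, edgeR), a call that was lost with library size alone and on the FPKM scale.

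Tfrc, the receptor that brings transferrin iron into cells, showed the largest change with the clearest separation of the 10 genes. It lies on chromosome 16 of GRCm38 from 32608920 to 32632794 on the plus strand. Its 3′ UTR holds IREs, and iron regulatory proteins bound to them protect the mRNA from decay. A search of the GENCODE transcript for a CAGTGN loop on a stem with an unpaired C found 4 matches. The rule is strict and matched 6 of 8 mRNAs known for IREs, so further elements can be missed. The 4 matches are printed 5′ to 3′ with the loop in capitals, because such hairpins are known control sites of this mRNA.
Tfrc IRE at chr16:32631222-32631244: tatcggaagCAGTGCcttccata
Tfrc IRE at chr16:32631601-32631623: tatcgggagCAGTGTcttccata
Tfrc IRE at chr16:32631666-32631688: tatcggagaCAGTGAtctccata
Tfrc IRE at chr16:32631713-32631735: tatcgggaaCAGTGTttcccata

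The 4 elements share the first bases tatcgg and the last bases ccata. The same search found a match in 131 of 21877 coding genes (0.599%), taking 1 transcript per gene. Such a match is a description of the letters and was not measured here as binding.

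Sedentary livers held 58.0, 65.1, 47.7, 42.3, 47.5 and 52.2 CPM of Tfrc in replicates 1 to 6. Exercised livers held 33.0, 25.1, 24.7, 22.1, 21.2 and 29.6 CPM. The highest exercised liver, Exercise replicate 1, was below the lowest sedentary liver, Sedentary replicate 4. The means were 52.1 ± 8.25 and 25.9 ± 4.52 CPM (SD, n = 6 each), a fall of 50.2%. The log2 fold change was -1.01 (SE 0.12, 95% interval -1.27 to -0.75, adjusted p = 1.55e-05 from edgeR). The 2-sided exact permutation test gave p = 0.00216, the smallest p that 6 livers against 6 can give. Without Exercise replicate 1 the log2 fold change was -1.08 (adjusted p = 4.03e-06, edgeR). With each liver left out in turn it stayed between -1.08 and -0.93, and passed each time.

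**Figure D3:**
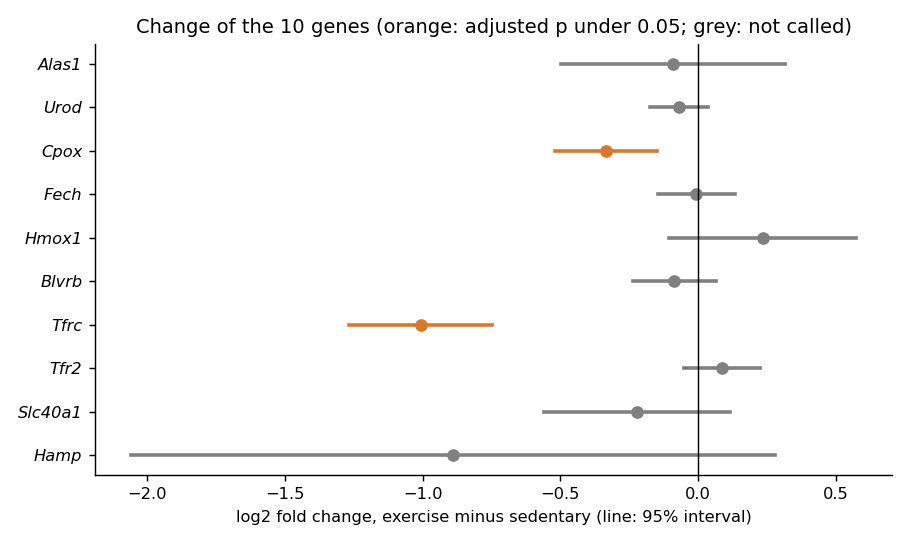
Log2 fold change of the 10 genes, Exercise minus Sedentary, from edgeR, with lines for the 95% interval and orange for an adjusted p under 0.05. The intervals of Tfrc (-1.27 to -0.75) and Cpox (-0.52 to -0.15) lie below 0, and the interval of Hamp is the widest.

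Tfr2, the second receptor, is made mainly by hepatocytes, serves as a sensor of transferrin iron and has an mRNA known to lack IREs. It lies on chromosome 5 from 137569840 to 137587481. Sedentary livers ranged from 285 to 331 CPM with a median of 310, and exercised livers from 299 to 377 with a median of 325. Exercise replicates 2, 3 and 5 were above every sedentary liver, and the other 3 were inside the sedentary range. The log2 fold change was 0.089 (SE 0.066, 95% interval -0.049 to 0.23, adjusted p = 0.299, edgeR), and with library size alone it was -0.0068, so no direction can be given. The interval of Tfrc and that of Tfr2 did not meet. Per transcript length, mean Tfr2 was at 106 FPKM in sedentary and 105 FPKM in exercised livers, and mean Tfrc at 11.1 and 5.15 FPKM.

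Other genes of iron uptake moved in both directions, with 2 of 9 higher and 3 lower, Tfrc included. Steap3, the endosomal reductase that works beside TFRC, fell from 24.9 ± 4.07 to 14.3 ± 1.42 CPM (SD, n = 6 each; log2 fold change -0.80, adjusted p = 6.10e-06, edgeR). Slc11a2, the transporter DMT1, fell by 0.37 on the log2 scale (adjusted p = 0.000132, edgeR). Slc39a14, which takes up iron that is not bound to transferrin, rose by 0.38 (adjusted p = 0.000496, edgeR). Its relative Slc39a8 rose by 0.20 (adjusted p = 0.0190, edgeR), a call that was lost with library size alone and on the FPKM scale. Trf, transferrin itself, had a log2 fold change of 0.17 and did not pass (adjusted p = 0.0847, edgeR).

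Genes of the proteins that read the IREs had small differences. Aco1, which is IRP1 when it lacks its iron-sulfur cluster, had a log2 fold change of -0.13 at the edge of the threshold (adjusted p = 0.0478, edgeR), and lost its call under 3 of the alternatives and without any of 10 livers. Ireb2, which encodes IRP2, did not pass (log2 fold change 0.085, adjusted p = 0.421, edgeR). Fbxl5, which marks IRP2 for degradation, fell by 0.23 on the log2 scale (adjusted p = 0.00754, edgeR), so 2 of 3 listed genes were lower. Of 8 mRNAs known for IREs, 1 was higher (Epas1, log2 fold change 0.24, adjusted p = 0.00925, edgeR, lost with library size alone and on the FPKM scale) and 3 were lower (Tfrc, Slc11a2 and Ftl1). The search found an IRE in 6 of these 8.

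Slc40a1, ferroportin, carries its IRE in the 5′ UTR, where a bound iron regulatory protein blocks translation. The gene lies on chromosome 1 of GRCm38 from 45908068 to 45926523 on the minus strand. Its element is shown to set it beside those of Tfrc, with the loop in capitals.
Slc40a1 IRE at chr1:45925468-45925490 on the minus strand: cttcagctaCAGTGTtagctaag

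Sedentary livers ranged from 62.7 to 111 CPM of Slc40a1 with a median of 79.8, and exercised livers from 57.7 to 98.6 with a median of 63.5. Exercised livers were below the sedentary median in 5 of 6 cases, and Exercise replicate 3 was the second highest of all 12. The log2 fold change was -0.22 (SE 0.15, 95% interval -0.56 to 0.11, adjusted p = 0.278, edgeR). Without Exercise replicate 3 the value was -0.34 and passed narrowly (adjusted p = 0.0497, edgeR), and with library size alone it was -0.32 (adjusted p = 0.0492, edgeR). It also passed in 2 of 3 limma fits on the FPKM scale.

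Of 8 genes of iron storage and export, 2 were higher and 2 lower. Ncoa4, the receptor that delivers ferritin to lysosomes, rose from 145 ± 13.6 to 239 ± 20.7 CPM (SD, n = 6 each; log2 fold change 0.72, adjusted p = 5.82e-07, edgeR). Pcbp2, an iron chaperone, rose by 0.26 on the log2 scale (adjusted p = 0.00310, edgeR) and its relative Pcbp1 fell by 0.19 (adjusted p = 0.0310, edgeR), a call lost without any of 5 livers. The ferritin light chain Ftl1 fell by 0.18 (adjusted p = 0.0344, edgeR), lost without any of 6 livers. The heavy chain Fth1 had a log2 fold change of 0.042 (adjusted p = 0.583, edgeR), and of -0.057 with library size alone.

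Hamp varied most of the 10 genes within each group. It lies on chromosome 7 of GRCm38 from 30942368 to 30944032 on the minus strand. Sedentary livers held 131, 40.1, 83.8, 32.9, 153.5 and 41.1 CPM in replicates 1 to 6. Exercised livers held 29.6, 89.7, 53.7, 33.8, 40.2 and 13.0 CPM. Sedentary replicates 1 and 5 and Exercise replicate 2 were high, Exercise replicate 6 was the lowest, and the groups overlapped between 32.9 and 89.7 CPM. The highest liver was 4.66 times the lowest in the Sedentary group and 6.88 times in the Exercise group. The CV was 64.3% and 60.8%, against 5.56% and 2.44% for Urod.

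The mean of Hamp was 80.4 ± 51.7 CPM in sedentary and 43.3 ± 26.3 CPM in exercised livers (SD, n = 6 each). The log2 fold change of -0.89 was close in size to that of Tfrc, but its SE was 0.53 and its 95% interval ran from -2.06 to 0.28, so it did not pass (adjusted p = 0.206, edgeR; exact permutation test, 2-sided, p = 0.143). Without Sedentary replicate 5 it was -0.59, and without Exercise replicate 2 it was -1.24, neither of which passed (adjusted p = 0.401 and 0.0896, edgeR). The interval of Hamp thus held both 0 and the value found for Tfrc.

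Mice have a second hepcidin gene, Hamp2, on chromosome 7 from 30922372 to 30924681, whose peptide is not known to lower iron as hepcidin does. The transcripts are alike, with 388 of 410 aligned bases identical (94.6%). Of the 361 windows of 50 bases in the Hamp transcript, 60 (16.6%) also stand in Hamp2, and of its 311 windows of 100 bases none does. The estimated counts share such reads between the genes by a model, so the division between the paralogs is uncertain. Gm44662 overlaps both genes on the opposite strand, and whether reads were counted by strand is not given in the sources used here.

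The promoters differ at few bases. The window of 100 bases that holds the known BMP-responsive element and STAT site of Hamp is printed from RefSeq (GRCm38.p6), 5′ to 3′ on the minus strand, with these motifs in capitals. The windows of both paralogs are shown to set them side by side. Their log2 fold changes had opposite signs here, but neither passed, and a part of the promoters in this was not tested.
Hamp promoter at chr7:30944102-30944201: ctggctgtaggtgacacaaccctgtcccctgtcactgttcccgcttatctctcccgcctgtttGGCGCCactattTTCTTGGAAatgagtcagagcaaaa
Hamp2 promoter at chr7:30924251-30924350: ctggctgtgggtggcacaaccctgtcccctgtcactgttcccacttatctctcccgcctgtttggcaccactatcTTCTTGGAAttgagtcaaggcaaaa

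The windows differ at 8 of 100 bases. The substitution G67A, with Hamp first and Hamp2 second and positions counted from 1 at the 5′ end, lies in the BMP-responsive element GGCGCC, whose letters are thus not in the Hamp2 window. The STAT motif TTCNNNGAA is in both. Searched on both strands, GGCGCC is in 11.9% and TTCNNNGAA in 8.30% of 32851 promoters of 300 bases, and the motifs do not overlap here. A motif match says nothing of binding in these livers.

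Hamp2 was at 63.5 ± 31.6 CPM in sedentary and 95.9 ± 21.5 CPM in exercised livers (SD, n = 6 each), with a log2 fold change of 0.60 that did not pass (SE 0.31, adjusted p = 0.154, edgeR). It passed only without Sedentary replicate 5 (0.87, adjusted p = 0.0222, edgeR). Hamp made up 32.1% to 82.3% of the Hamp and Hamp2 sum in sedentary livers, with a median of 53.3%, and 13.2% to 40.8% in exercised livers, with a median of 29.8%. The 4 highest shares were all sedentary, and the ranges overlapped. The mean log2 ratio of Hamp to Hamp2 was 0.23 ± 1.17 in sedentary and -1.33 ± 0.73 in exercised livers (SD, n = 6 each), a difference of -1.56 (exact permutation test, 2-sided, p = 0.0130). This ratio was chosen after the values were seen, and its p carries no correction for that. With each liver left out it ranged from -1.82 to -1.17, with p from 0.00433 to 0.0325. When the counts of both genes were summed before the fit, the log2 fold change was -0.047 (adjusted p = 0.920, edgeR).

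**Figure D4:**
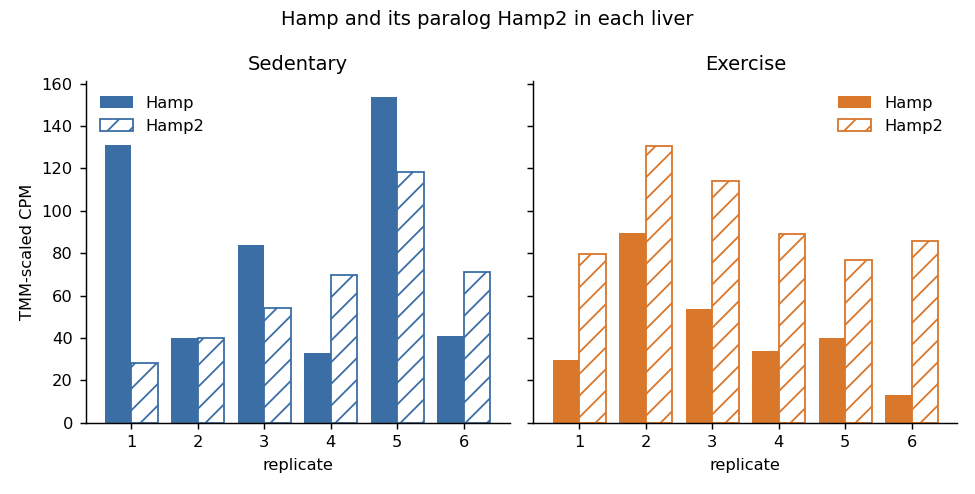
TMM-scaled CPM of Hamp (filled bars) and Hamp2 (hatched bars) in each liver, by group and replicate number (n = 6 per group). Hamp2 is the higher of the pair in all 6 exercised livers and in Sedentary replicates 4 and 6.

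In the list for hepcidin regulation, which includes Hamp and Hamp2, 20 of 21 genes were tested, 5 were higher and 2 lower. Hjv, the BMP co-receptor hemojuvelin, fell from 86.0 ± 8.48 to 51.0 ± 2.64 CPM (SD, n = 6 each; log2 fold change -0.75, adjusted p = 1.58e-07, edgeR). The BMP receptor Bmpr2 rose by 0.39 on the log2 scale (adjusted p = 0.000652, edgeR) and the common SMAD, Smad4, by 0.26 (adjusted p = 0.000865, edgeR). The IL-6 receptor Il6ra rose from 24.2 ± 9.25 to 59.7 ± 9.23 CPM (SD, n = 6 each; log2 fold change 1.301, adjusted p = 0.00123, edgeR). Bmp2, the endothelial ligand, rose by 0.39 (adjusted p = 0.00841, edgeR), beside 3 of 6 endothelial markers higher (Lyve1, Pecam1 and Bmp2 itself) and 1 lower (Kdr). The summed endothelial markers were at 118 to 153 CPM in sedentary and 133 to 197 CPM in exercised livers, and their part in the Bmp2 difference was not tested.

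Genes known as BMP-SMAD targets did not move as a block, with 1 of 10 higher, 2 lower and 7 not passing. The list includes Hamp and Hamp2, and 30% of it passed, against 42.4% of all genes tested. Atoh8 rose from 7.90 ± 1.12 to 24.1 ± 4.15 CPM (SD, n = 6 each; log2 fold change 1.61, adjusted p = 5.11e-08, edgeR). Id2 fell by 1.51 (adjusted p = 1.13e-06, edgeR) and Id3 by 0.36 on the log2 scale (adjusted p = 0.00716, edgeR). For Atoh8 and Id2, also named for their small adjusted p, the groups did not overlap, as in 22.3% of all genes tested. Over all 14 lists, 111 of 113 genes other than the 10 were tested, 28 were higher, 24 lower and 59 did not pass. That is 46.8% passing, near the 42.4% of all genes tested.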

How the data were processed

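The authors extracted total liver RNA and made mRNA libraries. The submitters' notes name Bowtie2 2.3.4.3, RSEM 1.3.1 and mm10 (GRCm38). The authors deposited expected counts per gene, which are not scaled between libraries (31.3% were not whole), and FPKM, scaled for transcript length and depth. Groups came from the sample labels.

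Expected counts were rounded and compared between groups by the quasi-likelihood test of edgeR 4.0.16 (R 4.3.3), fitted robustly after TMM scaling and filterByExpr (min.count 10), with p-values adjusted over 12344 genes by Benjamini-Hochberg (threshold 0.05). Single genes were also compared by an exact permutation test of mean log2(CPM + 0.5) over 924 relabellings. The biological coefficient of variation was 11.3%. With at least 18745379 counts per library, counting error was small except for genes with few counts. The code was tested on simulated data. Alternatives were DESeq2 1.42.0, limma-voom and limma 3.58.1 on log2(FPKM + 0.1) and log2(FPKM + 1), RLE, upper quartile and library size scaling, other filters, a replicate block and leaving out each liver. Summing Hamp and Hamp2, and their ratio, were added after seeing the data.

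The 10 genes, the 14 lists of other heme and iron genes and the 6 marker lists were chosen with earlier results of these data known. Named beyond the 10 are their partner enzymes, Hamp2, Trf, Fth1, Ftl1, Aco1, Ireb2 and, per list, up to 4 further genes with the smallest adjusted p. Some genes that this rule or the lists name are not reported here. Trf, Hjv and 1 other listed gene were matched through RefSeq synonyms. Promoters came from RefSeq GRCm38.p6, and positions and transcripts from GENCODE M21. Nothing in the sources says that replicates share a cage or litter, and p-values measure the spread between these mice. Python 3.11.15 with pandas 2.3.3 and Biopython 1.88 did the rest.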

Additional observations from a re-analysis of the deposited data

Results flagged for a closer look

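In 4 of 116 groups of 6 livers, for the named genes, 1 liver lay far from the others by Dixon's test, and chance alone gives about 5.8. Fth1 was at 2012 CPM in Exercise replicate 2, and the next liver at 2157 (a gap of 0.697 of the range). Fbxl5 was at 19.8 CPM in Sedentary replicate 1, with the next at 17.5 (0.658). Ppargc1a was at 42.1 CPM in Exercise replicate 3, with the next at 32.5 (0.698). Srxn1 was at 27.8 CPM in Exercise replicate 1, with the next at 21.8 (0.666). None of the 10 genes had such a liver in either group, Hamp included.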

How the results depend on the processing

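Tfrc and Cpox were lower under all 11 alternatives and without each liver. The count of lower genes among the 10 was 2, and 4 with library size alone, with limma on log2(FPKM + 0.1) and with limma on log2(FPKM + 1), where Urod (-0.16, -0.18 and -0.18) and Slc40a1 (-0.32, -0.32 and -0.31) joined. It was 3 with limma on log2(FPKM + 0.1) over every gene above 0, where Urod joined (-0.18). The share of calls that were higher was 49.8% with TMM, and 32.1%, 31.4% and 31.6% under the 3 settings that gave 4, whose median log2 fold change over all genes was -0.098, -0.093 and -0.066. It was 31.7% with log2(FPKM + 0.1) over every gene above 0.

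Values that changed sign were small. Tfr2 was -0.0068 with library size alone, -0.0068 with log2(FPKM + 0.1) under both filters and -0.0067 with log2(FPKM + 1). Fth1 was -0.057, -0.053 and -0.053, and Ireb2 -0.0098 with library size alone. With 1 liver left out, Alas1 ranged from -0.21 to 0.0082 and Fech from -0.037 to 0.047, and the count of lower genes from 2 to 3. Of the 120 values of the 10 genes with 1 liver left out, 111 kept their sign and call. The cause was not tested.

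Same-numbered livers did not deviate together (correlations -0.093 to 0.159), and 1 of 6 correlated best with its own number. With the replicate number as a block, 4956 genes passed in place of 5229, Tfrc was -1.01 and Cpox -0.33, and of the genes named Aco1 alone lost its call.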

Other observations

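Of 10 genes known as acute phase targets of STAT3, 3 were higher and 0 lower at an adjusted p under 0.05 (edgeR). Besides Hp and Hpx, this was Lcn2, which binds bacterial iron carriers and rose from 6.44 ± 1.35 to 21.1 ± 8.82 CPM (SD, n = 6 each; log2 fold change 1.71, adjusted p = 0.000361, edgeR). Neutrophils could also carry Lcn2. Their markers summed to at most 2.09 CPM in any liver, and 1 of 7 passed the filter on low counts. Their part in the Lcn2 difference was not tested.

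Of 9 tested genes among 10 NRF2 targets, 0 were higher and 3 lower. Srxn1, a peroxiredoxin repair enzyme, fell from 31.5 ± 5.10 to 21.5 ± 3.27 CPM (SD, n = 6 each; log2 fold change -0.55, adjusted p = 0.000898, edgeR). Txnrd1, a thioredoxin reductase, fell by 0.26 on the log2 scale (adjusted p = 0.00613, edgeR), and the third was Ftl1. Hmox1, which is also an NRF2 target, had a value of 0.23 that did not pass.

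Of the other marker lists, 1 of 6 hepatocyte genes was higher (Alb, log2 fold change 0.24), 1 of 6 stellate cell genes was lower (Lrat, -0.59), and 0 of the 6 tested of 9 red cell genes and 0 of the 1 tested of 7 neutrophil genes passed (edgeR). At an unadjusted p under 0.05 in edgeR, 1 red cell gene was lower (Hbb-bt), and the median log2 fold change of the 6 tested was -0.24.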
